A study of Mus musculus with 10 samples.

Results

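Cell cycle and quiescence genes were followed across 3 freshly isolated endothelial populations of the mouse. The group comprised 36 genes chosen by symbol, and all 36 were rows of the deposited count table, which held 23284 genes. They fall into 4 roles: 13 genes of S phase and entry into it, 13 genes of mitosis, 5 genes of the D-type cyclins and their kinases, and 5 inhibitors of cyclin-dependent kinases (CDK). The populations were lymph node lymphatic endothelial cells (LN-LEC, 4 libraries), lymph node blood endothelial cells (LN-BEC, 3 libraries) and diaphragm lymphatic endothelial cells (D-LEC, 3 libraries). All came from untreated wild-type C57BL/6 (B6) mice 6 to 8 weeks old, with no transgene or allele in any group. The LN populations were from inguinal, axillary, brachial, cervical and mesenteric LN, which were pooled, and each library was made from cells of several mice, so that the spread between libraries is one between pools and not between animals. Cells were depleted of CD45+ leukocytes on magnetic beads and sorted as CD31+, with podoplanin separating LEC from BEC, and the RNA was amplified before bulk sequencing.

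A cell entering the cycle first raises D-type cyclins, which activate CDK4 and CDK6 and so release E2F transcription factors from the retinoblastoma family. E2F then drives the genes of DNA replication, while the genes of G2 and mitosis are switched on later through the MuvB complex, B-MYB and FOXM1. In resting cells the same MuvB core joins p130 and E2F4 as the DREAM complex, which keeps both sets low, and CDK inhibitors of the Cip/Kip and INK4 families restrain the kinases. Endothelium of adult vessels is known for dividing rarely, whereas LN endothelium can expand when the node enlarges.

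The libraries held 22429940 to 48906070 counted fragments, and every library had at least 8 fragments on each of the 36 genes other than Cdkn2a. LN-LEC replicate 4 and LN-BEC replicate 3 differed most from the other libraries of their populations. Both had the highest summed level of the 8 dissociation response genes (Fos, Fosb, Jun, Junb, Egr1, Atf3, Ier2 and Dusp1) in their population, 79225 and 153354 normalized counts. In D-LEC that sum was higher again, at 240528 to 271375, against 28409.9 to 79225 in LN-LEC and 82067 to 153354 in LN-BEC. The sorted identities were seen in the RNA: 5 lymphatic markers summed to 94668 to 119449.9 in LN-LEC, 387239 to 415551 in D-LEC and 2891 to 7955 in LN-BEC, and 4 blood endothelial markers to 818 to 1374, 449.9 to 633 and 69497 to 72713. Within LN-BEC, replicate 3 had the highest lymphatic sum, 7955 against 4007 and 2891. That library also had the lowest sum of 10 leukocyte markers, 963 against 1425 and 1521. The post-sort purity that the study reported was lowest for D-LEC. In bulk RNA, fewer cells of a kind and less RNA per cell cannot be told apart, which applies to every cycling gene below.

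Values are counts divided by DESeq2 size factors (normalized counts) and are given as the mean ± SD over libraries. Differences are log2 fold changes ± SE from edgeR's quasi-likelihood test over all 15321 genes tested, with p-values adjusted by Benjamini and Hochberg. Levels of different genes are compared only as FPKM, which divides by the exon length of each gene. A difference was called when its adjusted p was under 0.05.

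All 36 genes entered the test, and none was lost to the filter on low counts. LN-LEC and D-LEC differed in 15 of the 36, against 45.8% of all genes tested. Of these, 6 were higher in LN-LEC (24.1% of all genes) and 9 in D-LEC (21.7%). LN-LEC and LN-BEC differed in 10, against 38.2% of all genes, with 3 higher in LN-LEC (19.8% of all genes) and 7 in LN-BEC (18.4%). D-LEC and LN-BEC differed in 13, against 48.0% of all genes, with 5 higher in D-LEC (22.4% of all genes) and 8 in LN-BEC (25.6%). The shares of the list, 41.7%, 27.8% and 36.1%, were thus not above those of the whole transcriptome, and 15 of the 36 genes (41.7%, against 35.5% of all genes) were called in none of the 3 comparisons. The median absolute log2 fold change was 0.37, 0.24 and 0.37 for the 36 genes in the 3 comparisons, in the same order, and 0.52, 0.43 and 0.58 for all genes. The directions against LN-BEC depended on the scaling: with library totals alone, which moved the median of all genes by 0.20 (LN-LEC against LN-BEC) and 0.19 (D-LEC against LN-BEC) on the log2 scale, the split was 8 to 4 in favour of LN-LEC over LN-BEC, and 9 to 6 in favour of D-LEC over LN-BEC.

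**Figure D1:**
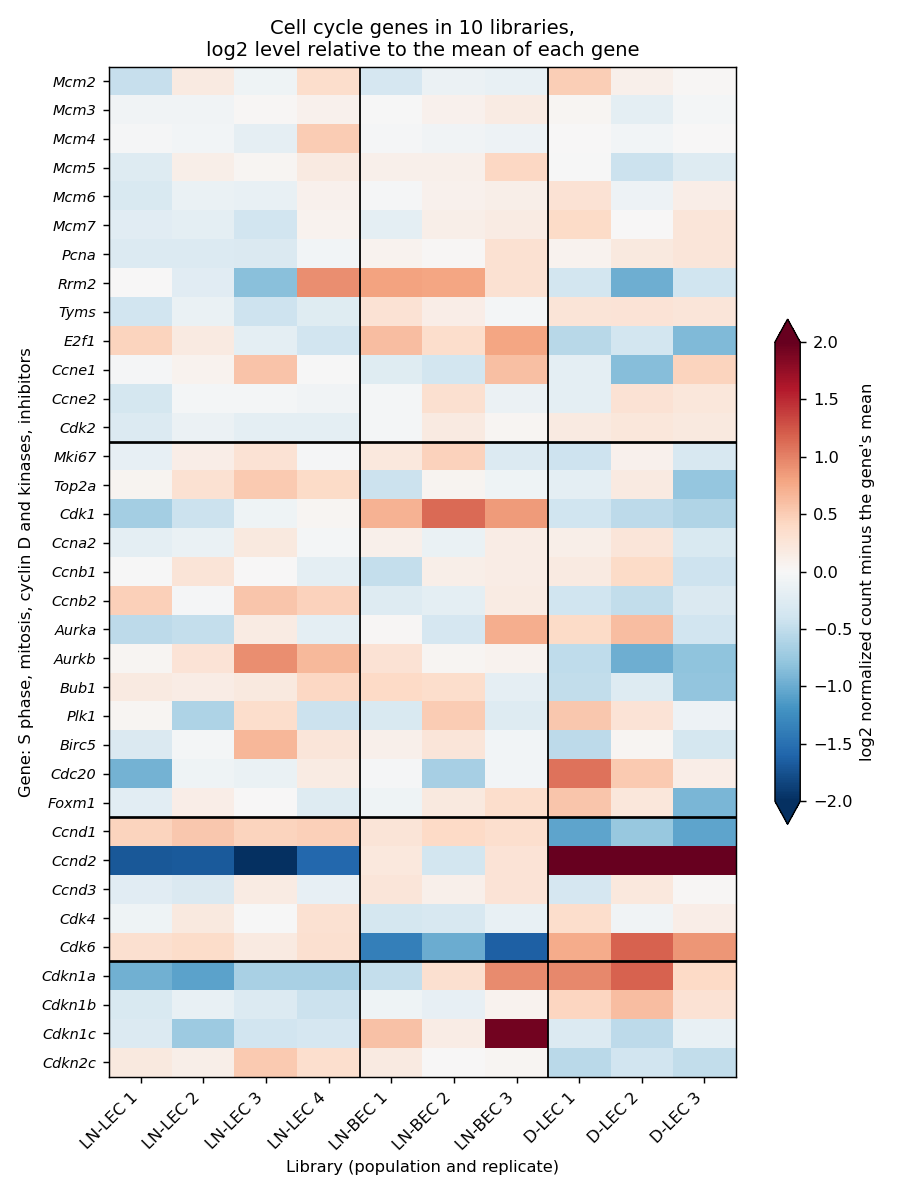
Heat map of 35 cell cycle genes (rows, in the order S phase, mitosis, D-type cyclins and kinases, CDK inhibitors, separated by lines) in the 10 libraries (columns). Colour gives the log2 normalized count minus the mean of that gene over the 10 libraries, with the scale ending at 2 in either direction; Cdkn2a is left out because its counts were at or near 0. Ccnd2 and Cdk6 separate the populations as blocks of colour and Ccnd1 sets D-LEC apart, while most rows of the S phase and mitosis genes are pale.

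The roles differed in abundance. In both LN populations cyclin D1 stood above every other gene of the group per exon length, with 197 ± 5.80 FPKM in LN-LEC (SD, n = 4), and it alone took 0.0716 to 0.0807% of all fragments there. In D-LEC it averaged 72.2 ± 9.36 FPKM, beside 71.0 ± 8.61 FPKM for Cdkn1b, and the libraries of these genes overlapped. The S phase genes had a median of 6.64 FPKM in LN-LEC and 8.06 in LN-BEC, with 7.29 in D-LEC, against 4.303, 4.315 and 4.01 FPKM for all genes tested. The mitosis genes were scarcer, with medians of 1.97, 1.84 and 1.45 FPKM. The 13 mitosis genes together reached 31.1 ± 4.30 FPKM in LN-LEC and 30.6 ± 1.89 in LN-BEC, with 26.6 ± 4.71 in D-LEC, and these sums overlapped between the 3 populations. The summed D-type cyclin level was 5.54 to 7.52 times the summed mitosis level in LN-LEC and 6.11 to 6.33 times in LN-BEC, with 3.50 to 4.80 times in D-LEC.

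Leaving Cdkn2a aside, the widest difference of the group was that of a D-type cyclin, cyclin D2. The median absolute log2 fold change of the D-type cyclins and their kinases was 0.63, 0.40 and 1.29 in the 3 comparisons. That of the CDK inhibitors, Cdkn2a included, was 0.72, 1.18 and 0.55. Cyclin D1 (Ccnd1, chr7:152115836-152125830 in mm9) was the main D-type cyclin of both LN populations and cyclin D2 (Ccnd2, chr6:127075727-127101066 in mm9) was high in the diaphragm. Ccnd1 had 21508, 22990.4, 21604 and 22012 normalized counts in the 4 LN-LEC libraries, 18886, 20917 and 20114 in the 3 LN-BEC libraries and 7602, 9360.0 and 7650.4 in the 3 D-LEC libraries. All D-LEC libraries thus lay below all 7 LN libraries. The gene was 2.72-fold higher in LN-LEC than D-LEC (log2 fold change 1.44 ± 0.10, adjusted p = 3.84e-08) and 2.44-fold higher in LN-BEC than D-LEC (log2 fold change -1.29 ± 0.10, adjusted p = 1.5e-07). Between LN-LEC and LN-BEC the libraries did not overlap, but the difference did not pass (log2 fold change 0.16 ± 0.09, adjusted p = 0.217), and it passed with library totals alone (adjusted p = 0.0123).

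Ccnd2 ran the other way. It had 5180.2, 8044 and 5099.7 normalized counts in D-LEC, 1392, 935 and 1450.5 in LN-BEC and 372, 376, 286 and 407 in LN-LEC, and none of the 3 ranges overlapped. Its level in D-LEC was 16.7-fold that in LN-LEC (log2 fold change -4.06 ± 0.22, adjusted p = 7.05e-08) and 4.84-fold that in LN-BEC (log2 fold change 2.28 ± 0.22, adjusted p = 8.8e-06). LN-BEC in turn were 3.45-fold above LN-LEC (log2 fold change -1.79 ± 0.21, adjusted p = 4.17e-05). Markers of other diaphragm cells were also higher in D-LEC: 6 skeletal muscle markers summed to 949 to 1314 normalized counts there, against 30.8 to 46.7 in LN-LEC and 82.2 to 103 in LN-BEC, where Myh4 was at 0, and 4 mesothelium markers to 562 to 1751 against 25.4 to 76.5 and 22.5 to 131. All 10 of these markers were called above both LN populations, and their part in the differences of D-LEC, in this and other genes, was not tested. Per exon length, Ccnd2 made up 29.0 to 34.6% of the summed D-type cyclin FPKM in D-LEC, 2.78 to 4.48% in LN-BEC and 0.84 to 1.18% in LN-LEC, so Ccnd1 was the most abundant D-type cyclin in all 10 libraries. The summed D-type cyclins and kinases came to 262 ± 11.8 FPKM in LN-LEC and 233 ± 10.1 in LN-BEC, with 172 ± 14.1 in D-LEC, in 3 ranges that did not overlap. Ccnd3, the third D-type cyclin, was called in no comparison and had 263 to 359.6 normalized counts in LN-LEC and 345 to 391 in LN-BEC, with 255 to 372 in D-LEC; 15.8% of its exon bases are shared with Bysl, and fragments there were not counted.

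**Figure D2:**
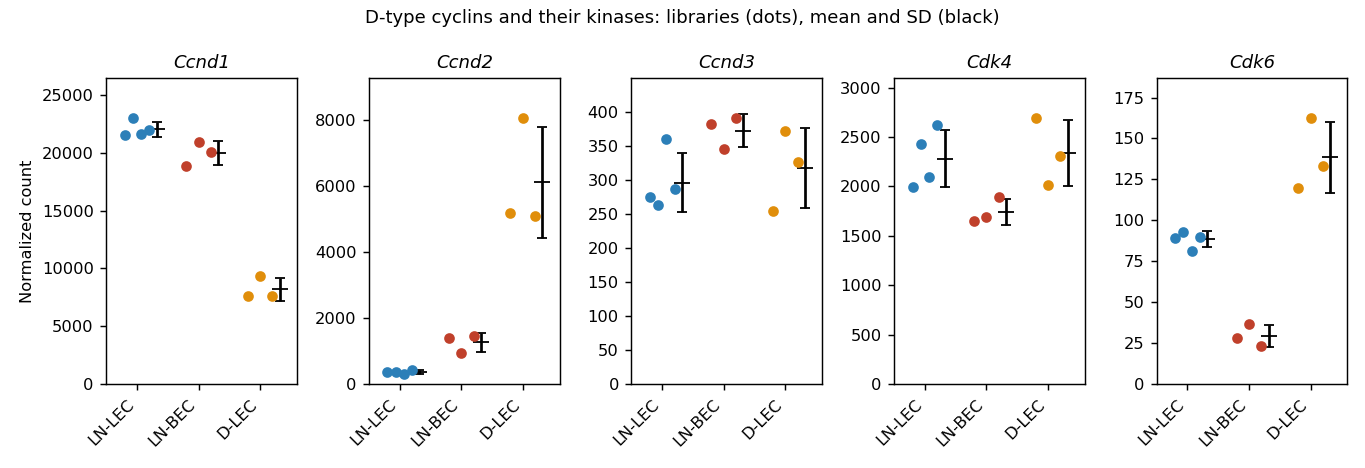
Normalized counts (y axis, from 0, its own scale in each panel) of Ccnd1, Ccnd2, Ccnd3, Cdk4 and Cdk6 in LN-LEC (blue), LN-BEC (red) and D-LEC (orange), 1 dot per library, with the mean and SD in black. Ccnd1 is low in the 3 D-LEC libraries, Ccnd2 is high in them, and Cdk6 is lowest in the 3 LN-BEC libraries.

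The kinases that D-type cyclins activate were both higher in lymphatic than in blood endothelium. Cdk6 had 28.0, 36.3 and 23.1 normalized counts in LN-BEC, 89.4, 92.7, 81.4 and 89.9 in LN-LEC and 119.8, 162 and 133 in D-LEC, again without overlap. It exceeded LN-BEC 3.04-fold in LN-LEC (log2 fold change 1.61 ± 0.24, adjusted p = 9.54e-05) and 4.7-fold in D-LEC (log2 fold change 2.23 ± 0.25, adjusted p = 5.21e-06). The step from LN-LEC to D-LEC was smaller (log2 fold change -0.63 ± 0.22, adjusted p = 0.0297), and that call was lost without LN-LEC replicate 1, 2, 3 or 4 or D-LEC replicate 2 or 3 (adjusted p up to 0.136) and with library totals alone (adjusted p = 0.0508). Cdk4 was far more abundant than Cdk6 per exon length, with 57.4 ± 7.34 FPKM against 1.21 ± 0.0642 in LN-LEC. Its normalized counts were 1988, 2425, 2093 and 2618 in LN-LEC, 2689, 2015 and 2308 in D-LEC and 1647, 1687 and 1893 in LN-BEC, where all 3 libraries lay below all others. Both contrasts with LN-BEC passed (log2 fold change 0.40 ± 0.12, adjusted p = 0.0138 for LN-LEC, and log2 fold change 0.42 ± 0.12, adjusted p = 0.0134 for D-LEC), while LN-LEC and D-LEC were not told apart (log2 fold change -0.01 ± 0.12, adjusted p = 0.95). Cdk4 lost the first call without LN-BEC replicate 1 (adjusted p = 0.058) and the second without D-LEC replicate 1 (adjusted p = 0.0621).

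Of the 5 CDK inhibitors, 4 differed in at least 1 comparison, against 64.5% of all genes tested. Cdkn1a and Cdkn1b had their highest mean in D-LEC, Cdkn1c in LN-BEC and Cdkn2c in LN-LEC. Cdkn1b, which encodes p27 and holds CDK2 in check in resting cells, had the highest mean of them per exon length in every population, with 71.0 ± 8.61 FPKM in D-LEC, 50.05 ± 4.29 in LN-BEC and 43.0 ± 3.43 in LN-LEC. In LN-LEC its libraries overlapped those of Cdkn2c, which was slightly higher in replicate 3 (43.96 against 43.37 FPKM). The normalized counts of Cdkn1b were 5028, 5744 and 4560.2 in D-LEC, 3516, 3322 and 3934 in LN-BEC and 3006, 3373, 3071 and 2772 in LN-LEC. The D-LEC libraries were all above the LN libraries, which overlapped each other. D-LEC exceeded LN-LEC 1.65-fold (log2 fold change -0.72 ± 0.10, adjusted p = 4.45e-05) and LN-BEC 1.42-fold (log2 fold change 0.50 ± 0.11, adjusted p = 0.00156), and both calls stood in all 18 alternative settings.

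Cdkn1a encodes p21, a p53 target that also answers to growth factors and stress. It had 642, 594, 796 and 804 normalized counts in LN-LEC and 903, 1569 and 2427 in LN-BEC, with 2439, 2847 and 1648 in D-LEC. LN-LEC were lowest without overlap, whereas LN-BEC and D-LEC overlapped. The level was 3.2-fold above LN-LEC in D-LEC (log2 fold change -1.68 ± 0.32, adjusted p = 0.0025) and 2.27-fold above LN-LEC in LN-BEC (log2 fold change -1.18 ± 0.32, adjusted p = 0.0178), while D-LEC and LN-BEC did not differ past the threshold (log2 fold change 0.50 ± 0.34, adjusted p = 0.266). The summed dissociation response genes moved with it between populations: the sum was 38193, 28409.9, 31103 and 79225 in the LN-LEC libraries, 99649.7, 82067 and 153354 in LN-BEC and 240528, 271375 and 253424 in D-LEC, with all 8 of those genes called above LN-LEC in D-LEC and 4 of 8 in LN-BEC. The part of that response in Cdkn1a was not tested. Without LN-LEC replicate 4 and LN-BEC replicate 3, LN-BEC were no longer called above LN-LEC (log2 fold change -0.85, adjusted p = 0.0749), and without LN-BEC replicate 3 alone D-LEC were called above LN-BEC (log2 fold change 0.89, adjusted p = 0.0326).

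Cdkn1c, the imprinted gene of p57, was highest in LN-BEC, with 647, 480.0 and 1639.5 normalized counts against 356, 260.2, 330.2 and 342 in LN-LEC and 358, 301 and 388 in D-LEC. All LN-BEC libraries were above all others, and LN-BEC replicate 3 was far above the other two. The contrasts were log2 fold change -1.50 ± 0.38, adjusted p = 0.0125 (LN-LEC minus LN-BEC) and log2 fold change -1.40 ± 0.41, adjusted p = 0.0203 (D-LEC minus LN-BEC). With LN-BEC replicate 3 left out they were -0.80 (adjusted p = 0.00132) and -0.70 (adjusted p = 0.0041), so the size of the difference, more than the call, rested on that library; the second call was lost without D-LEC replicate 1 or 2 (adjusted p = 0.0662 and 0.0689).

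Cdkn2c, which encodes the CDK4 and CDK6 inhibitor p18, followed Ccnd1 in being lowest in the diaphragm. Its normalized counts were 1139, 1075, 1432 and 1248 in LN-LEC and 1129, 1001 and 1014 in LN-BEC, with 686, 758 and 705 in D-LEC. The 3 D-LEC libraries lay below all 7 LN libraries (log2 fold change 0.79 ± 0.11, adjusted p = 3.87e-05 for LN-LEC minus D-LEC, and log2 fold change -0.55 ± 0.11, adjusted p = 0.00117 for D-LEC minus LN-BEC), while the LN populations did not differ past the threshold (log2 fold change 0.24 ± 0.11, adjusted p = 0.0937). As a share of the summed FPKM of Cdkn1a, Cdkn1b, Cdkn1c and Cdkn2c, Cdkn2c took 34.7 to 41.3% in LN-LEC and 19.9 to 31.3% in LN-BEC, with 14.8 to 17.97% in D-LEC, in 3 ranges that did not overlap. Cdkn2a, the senescence-linked locus of p16 and p19ARF, was at or near 0: it had 0 fragments in all 3 LN-BEC libraries and in LN-LEC replicate 2, and at most 5 fragments in any library. A fold change is not given for it, since the means of all 3 populations lay under 3 counts.

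**Figure D3:**
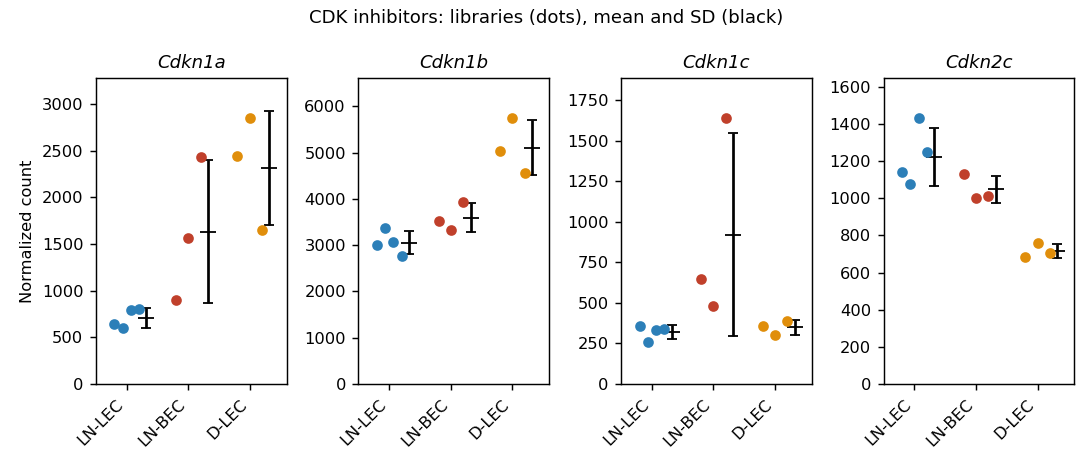
Normalized counts (y axis, from 0, its own scale in each panel) of Cdkn1a, Cdkn1b, Cdkn1c and Cdkn2c in LN-LEC (blue), LN-BEC (red) and D-LEC (orange), 1 dot per library, with the mean and SD in black. Cdkn1a and Cdkn1b place the means in the same order, with D-LEC highest, Cdkn1c is highest in LN-BEC and Cdkn2c in LN-LEC, and in the Cdkn1c panel 1 LN-BEC library stands at 1640, above the other two.

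**Figure D4:**
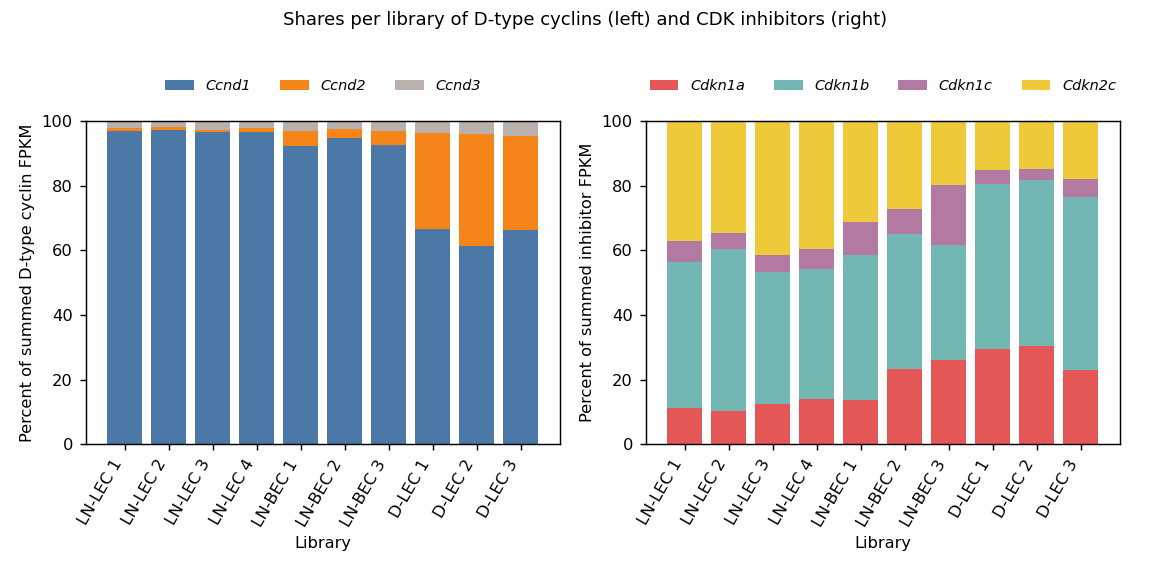
Stacked bars of the percent share of each gene in the summed FPKM of the D-type cyclins (left) and of 4 CDK inhibitors (right), 1 bar per library. The Ccnd2 share reaches 29.0 to 34.6% in D-LEC, and the Cdkn2c share is largest in the 4 LN-LEC libraries.

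Of the S phase genes, 7 of 13 were called in at least 1 comparison and 6 in none, where 64.5% of all genes tested were called in at least 1. The 7 calls of these genes between LN-LEC and another population all had LN-LEC at the lower level. They were 4 of 13 against D-LEC (30.8%, where 45.8% of all genes were called and 21.7% were higher in D-LEC). Against LN-BEC they were 3 of 13 (23.1%, where 38.2% of all genes were called and 18.4% were higher in LN-BEC). Pcna, the sliding clamp of DNA polymerase, had 1359.8, 1366, 1351 and 1576 normalized counts in LN-LEC and 1723, 1669 and 2021 in LN-BEC, with 1723, 1883 and 1941 in D-LEC. The 4 LN-LEC libraries lay below all the others (log2 fold change -0.37 ± 0.09, adjusted p = 0.00614 for LN-LEC minus D-LEC, and log2 fold change -0.34 ± 0.09, adjusted p = 0.0122 for LN-LEC minus LN-BEC). Tyms, thymidylate synthase, was lower in LN-LEC in the same way, at 747 ± 68.5 against 997 ± 113 in LN-BEC and 1089 ± 11.4 in D-LEC (log2 fold change -0.40 ± 0.10, adjusted p = 0.00527, and log2 fold change -0.52 ± 0.10, adjusted p = 0.000673). Cdk2, the kinase of cyclin E and cyclin A, had 1003, 1119.7, 1062 and 1066 in LN-LEC and below 1189, 1384 and 1247 in LN-BEC, with 1385, 1424 and 1401 in D-LEC (log2 fold change -0.25 ± 0.08, adjusted p = 0.0295, and log2 fold change -0.38 ± 0.08, adjusted p = 0.00175). The 3 calls against LN-BEC were all lost with library totals alone (adjusted p = 0.283, 0.205 and 0.773 for Pcna, Tyms and Cdk2), and that of Pcna also without LN-BEC replicate 3 (adjusted p = 0.0565) and that of Cdk2 without LN-LEC replicate 1 or 3 or LN-BEC replicate 2 (adjusted p up to 0.182), whereas those against D-LEC stood in all 18 alternative settings.

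The other S phase calls all involved D-LEC. E2f1, an activator of replication genes, had 29.0, 33.1 and 23.1 normalized counts in D-LEC and 65.7, 54.5 and 73.5 in LN-BEC (log2 fold change -1.19 ± 0.32, adjusted p = 0.00724), and LN-LEC, at 58.3, 48.2, 37.3 and 32.7, overlapped both. Rrm2, the ribonucleotide reductase subunit made in S phase, had 159, 104 and 155 in D-LEC and 358, 354 and 254 in LN-BEC (log2 fold change -1.22 ± 0.38, adjusted p = 0.0227). Its LN-LEC values spread more widely, at 206, 176, 115 and 392, with LN-LEC replicate 4 highest, and the call was lost without LN-BEC replicate 1 or 2 or D-LEC replicate 1 or 2 (adjusted p up to 0.0844). Without LN-LEC replicate 4, Rrm2 was called lower in LN-LEC than LN-BEC, at -0.95 (adjusted p = 0.00634) in place of -0.50 (adjusted p = 0.289), and without LN-LEC replicate 3 higher in LN-LEC than D-LEC, at 0.92 (adjusted p = 0.0281) in place of 0.71 (adjusted p = 0.135). The 6 subunits of the MCM replicative helicase, which load together onto replication origins, differed little between populations, and their summed level was 40.1 ± 5.50 FPKM in LN-LEC and 41.3 ± 2.32 in LN-BEC, with 42.3 ± 3.74 in D-LEC. Within a population the subunits were unequal per exon length: Mcm4 was the highest in all 3, with 11.6 FPKM in LN-LEC and 10.3 in LN-BEC, with 10.7 in D-LEC, and the lowest subunit was Mcm2 in LN-LEC and LN-BEC (2.45 and 2.09 FPKM) and Mcm5 in D-LEC (2.40 FPKM). The 2 MCM calls were single ones: Mcm7 was higher in D-LEC than LN-LEC (log2 fold change -0.37 ± 0.13, adjusted p = 0.0346) and Mcm5 was lower in D-LEC than LN-BEC (log2 fold change -0.45 ± 0.16, adjusted p = 0.0326). The first was lost without LN-LEC replicate 1, 2 or 3 or D-LEC replicate 1 or 3 (adjusted p up to 0.132), and the second without LN-BEC replicate 3 or D-LEC replicate 2 or 3 (adjusted p up to 0.119) and with library totals alone (adjusted p = 0.223).

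Mcm2, Mcm3, Mcm4, Mcm6, Ccne1 and Ccne2 were called in no comparison. Mcm4 had 1132, 1112, 1022 and 1638 in LN-LEC and where replicate 4 was high, and 1073 to 1131 in LN-BEC, with 1111 to 1168 in D-LEC. Mcm2 ranged from 174 to 307 in LN-LEC and 191 to 221 in LN-BEC, with 245 to 337 in D-LEC. Mcm3 and Mcm6 had means of 653 ± 36.5 and 626 ± 72.3 in LN-LEC, 694 ± 39.6 and 708 ± 36.2 in LN-BEC, and 631 ± 51.5 and 739 ± 100.1 in D-LEC. The 2 cyclin E genes, partners of CDK2 at the start of S phase, were near the lower end of the group. Ccne1 reached 14.3 to 21.5 in LN-LEC and 11.2 to 22.1 in LN-BEC, with 8.02 to 19.8 in D-LEC, so that its differences carried SE of 0.46 to 0.49 on the log2 scale. Ccne2 had 80.4 to 99.5, 94.5 to 128 and 89.6 to 124 in the 3 populations; 53.9% of its exon bases are shared with Ints8 and were not counted, so its level is understated.

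The mitosis genes did not move as a block. Here 6 of 13 were called in at least 1 comparison and 7 in none, against 64.5% of all genes called in at least 1, and the median log2 fold change of the 13 was 0.27 for LN-LEC minus D-LEC, 0.05 for LN-LEC minus LN-BEC and -0.10 for D-LEC minus LN-BEC, beside 0.03, -0.0085 and -0.05 for all genes. The chief mitotic kinase Cdk1 (chr10:68799383-68815660 in mm9) stood out in LN-BEC, with 397, 539.6 and 442 normalized counts against 153, 182, 232 and 251 in LN-LEC and 185, 171 and 162 in D-LEC. LN-BEC exceeded LN-LEC 2.21-fold (log2 fold change -1.15 ± 0.17, adjusted p = 0.000114) and D-LEC 2.67-fold (log2 fold change -1.42 ± 0.19, adjusted p = 3.13e-05), with no overlap. The cyclins that bind this kinase did not share its order. Ccna2 and Ccnb1 were called in no comparison, with 257 to 338 and 72.3 to 99.0 in LN-LEC, 269.8 to 325 and 59.5 to 91.4 in LN-BEC, and 237 to 349.7 and 62.0 to 107 in D-LEC, and 13.4% of the exon bases of Ccna2 are shared with Exosc9. Ccnb2 was highest in LN-LEC, at 223, 159, 236 and 223, against 134, 141 and 179.6 in LN-BEC and 122, 114 and 131 in D-LEC. Its contrast with D-LEC passed in all 18 alternative settings (log2 fold change 0.80 ± 0.19, adjusted p = 0.00309), but that with LN-BEC only just passed (log2 fold change 0.49 ± 0.18, adjusted p = 0.0496) and was lost without LN-LEC replicate 1, 3 or 4, LN-BEC replicate 1 or 2 or D-LEC replicate 1, 2 or 3 (adjusted p up to 0.16).

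Leukocyte transcripts were also higher in LN-BEC: the 10 leukocyte markers summed to 1425, 1521 and 963 normalized counts in the LN-BEC libraries, 408 to 567 in LN-LEC and 35.5 to 94.6 in D-LEC, with 8 of 10 called above LN-LEC and 10 of 10 above D-LEC. Ptprc, which encodes CD45, averaged 285 in LN-BEC, 40.3 in LN-LEC and 14.9 in D-LEC. Their part in the Cdk1 level, and in those of E2f1 and Rrm2, was not tested. The widely used proliferation marker Mki67 overlapped between the 3 populations, with 908, 1078 and 649 in LN-BEC, 696, 856, 959 and 766 in LN-LEC and 589, 826 and 627 in D-LEC, and no call in any comparison. Without LN-BEC replicate 3 it was called higher in LN-BEC than D-LEC (log2 fold change -0.56, adjusted p = 0.0142), and likewise without D-LEC replicate 2 (log2 fold change -0.54, adjusted p = 0.0483).

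Some mitosis genes were lower in D-LEC than in LN-LEC. Aurkb, the kinase of the chromosomal passenger complex, had 41.6, 30.1 and 33.9 normalized counts in D-LEC, 60.9, 71.1, 112 and 93.0 in LN-LEC and 71.8, 60.5 and 62.0 in LN-BEC. The D-LEC libraries lay below all others (log2 fold change 1.29 ± 0.28, adjusted p = 0.00187 for LN-LEC minus D-LEC, and log2 fold change -0.89 ± 0.29, adjusted p = 0.0229 for D-LEC minus LN-BEC), although the second call was lost without LN-BEC replicate 1 or D-LEC replicate 2 or 3 (adjusted p up to 0.0736) and with library totals alone (adjusted p = 0.0756). Bub1, a kinase of the spindle checkpoint, had 36.6, 43.1 and 29.7 in D-LEC, 58.3, 57.1, 58.8 and 68.5 in LN-LEC and 67.4, 65.7 and 45.2 in LN-BEC; it passed against LN-LEC (log2 fold change 0.76 ± 0.27, adjusted p = 0.0334) and not against LN-BEC (log2 fold change -0.71 ± 0.28, adjusted p = 0.0524), and the call was lost without LN-LEC replicate 1, 3 or 4 or D-LEC replicate 1 or 3 (adjusted p up to 0.123). Top2a, the topoisomerase of condensing chromosomes, had 858, 1113 and 576 in D-LEC and 1020.1, 1224, 1416 and 1286 in LN-LEC, ranges that overlapped (log2 fold change 0.57 ± 0.21, adjusted p = 0.0437), and 734, 1019.6 and 924 in LN-BEC. Its call was lost without LN-LEC replicate 2, 3 or 4, LN-BEC replicate 3 or D-LEC replicate 1 or 3 (adjusted p up to 0.119). In D-LEC the replicate 3 library had the lowest value of the population for 9 of the 13 mitosis genes. Cdc20, the activator of the anaphase-promoting complex, went the opposite way, with 308, 207 and 159 in D-LEC, 75.2, 136, 132 and 162 in LN-LEC and 142, 90.8 and 139 in LN-BEC (log2 fold change -0.79 ± 0.28, adjusted p = 0.032 for LN-LEC minus D-LEC, and log2 fold change 0.85 ± 0.30, adjusted p = 0.032 for D-LEC minus LN-BEC). D-LEC replicate 1 was the highest, and without it neither call stood (adjusted p = 0.182 and 0.157). Leaving out D-LEC replicate 2 also ended both, LN-LEC replicate 1, 2 or 3 the first and LN-BEC replicate 2 the second, with an adjusted p of up to 0.112.

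Mki67, Aurka, Plk1, Birc5 and Foxm1, with Ccna2 and Ccnb1, were called in no comparison. Aurka and Plk1, kinases of the centrosome and spindle, had 48.0 to 76.9 and 25.4 to 49.8 normalized counts in LN-LEC, 54.5 to 113 and 31.5 to 55.3 in LN-BEC, and 52.9 to 105 and 36.4 to 56.8 in D-LEC. Birc5, the survivin subunit of the passenger complex that holds Aurkb, had 143, 170.1, 276 and 206 in LN-LEC and 187, 206 and 169 in LN-BEC, with 121, 179 and 136 in D-LEC, and its D-LEC and LN-LEC ranges overlapped (log2 fold change 0.47 ± 0.23, adjusted p = 0.109). Foxm1, the transcription factor of the G2 and M genes, had 75.2, 95.2, 87.1 and 72.9 in LN-LEC and 82.3, 99.5 and 110.3 in LN-BEC, with 127, 101 and 46.3 in D-LEC, and again D-LEC replicate 3 was low. Such levels left these differences with SE of up to 0.36 on the log2 scale.

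**Figure D5:**
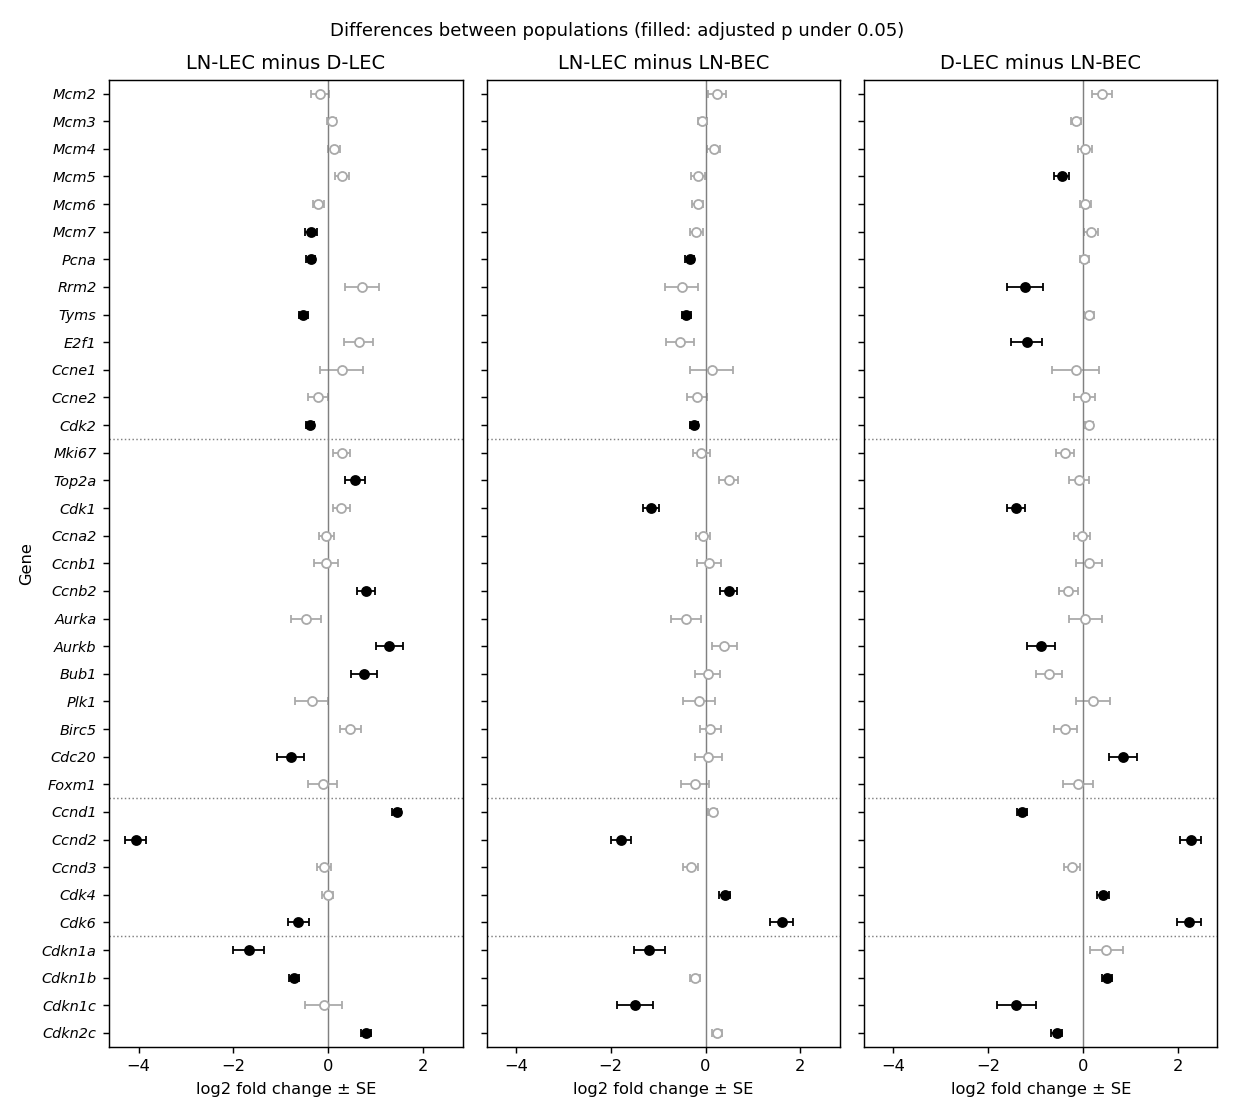
Log2 fold changes (x axis, the same in the 3 panels) of 35 cell cycle genes (y axis, ordered by role, with dotted lines between roles) for LN-LEC minus D-LEC, LN-LEC minus LN-BEC and D-LEC minus LN-BEC. Points are edgeR estimates with SE, filled black where the adjusted p was under 0.05; the points farthest from 0 are those of Ccnd2, from -4.06 to 2.28, and Cdk6, Cdkn1a, Cdkn1c, Ccnd1, Cdk1, Aurkb, Rrm2 and E2f1 also lie more than 1 from 0 in at least 1 panel.

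The promoters were searched for letters known from cell cycle genes. RefSeq windows of 300 bases around the start sites (GRCm38.p6, a later build than the counts) were found for 28 of the 36 genes and not for Mcm4, Ccne2, Ccna2, Aurkb, Foxm1, Ccnd1, Ccnd2 and Cdkn1c. They were searched on both strands for the cell cycle genes homology region (CHR, TTTGAA) that MuvB contacts, for the CCAAT box of NF-Y, and for the E2F core in 4 forms, the first TTTGGCG, the second TTTCGCG, the third TTTCCCG and the fourth TTTGCCG, whose matches may overlap each other. A CHR was present for 7 of 10 mitosis genes with a window and a CCAAT box for 9 of 10, against 17.9% and 37.4% of all 32851 promoter windows. Of the S phase genes, 1 of 11 had a CHR, 8 of 11 a CCAAT box and 5 of 11 an E2F core. An E2F core was present in 6.70% of all windows. Of the CDK inhibitors with a window, 3 of 4 had a CCAAT box and 2 of 4 an E2F core. The latter was also present for 2 of 10 mitosis genes, so neither motif was particular to 1 role. A gene was counted if any of its windows held a match, whereas the shares of all windows are per window. Cdk1, highest in LN-BEC, Ccnb2 and Top2a, lower in D-LEC than LN-LEC, Cdc20, higher in D-LEC, and the S phase gene Mcm5 are shown to let these letters be compared between genes that moved differently. The 250 bases before each start site are given 5′ to 3′ on the strand of the gene, with matches in capitals (on the other strand the CHR reads TTCAAA, the CCAAT box reads ATTGG and the first E2F form reads CGCCAAA).
Cdk1, chr10:69352913-69353162 (minus strand): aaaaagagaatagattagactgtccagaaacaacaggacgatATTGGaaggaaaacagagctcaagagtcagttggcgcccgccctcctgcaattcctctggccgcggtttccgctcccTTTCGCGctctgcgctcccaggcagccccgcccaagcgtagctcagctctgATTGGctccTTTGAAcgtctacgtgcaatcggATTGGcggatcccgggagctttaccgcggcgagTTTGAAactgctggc
Ccnb2, chr9:70421555-70421804 (minus strand): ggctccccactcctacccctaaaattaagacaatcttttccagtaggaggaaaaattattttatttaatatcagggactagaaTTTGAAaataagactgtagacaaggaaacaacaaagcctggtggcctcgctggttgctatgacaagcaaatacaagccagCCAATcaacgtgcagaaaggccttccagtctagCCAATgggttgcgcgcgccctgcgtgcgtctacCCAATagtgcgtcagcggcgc
Top2a, chr11:99024190-99024439 (minus strand): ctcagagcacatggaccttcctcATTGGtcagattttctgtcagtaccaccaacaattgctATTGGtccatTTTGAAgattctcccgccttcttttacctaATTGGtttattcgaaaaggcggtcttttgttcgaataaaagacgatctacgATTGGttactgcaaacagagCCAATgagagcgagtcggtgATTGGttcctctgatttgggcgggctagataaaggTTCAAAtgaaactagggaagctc
Cdc20, chr4:118437344-118437593 (minus strand): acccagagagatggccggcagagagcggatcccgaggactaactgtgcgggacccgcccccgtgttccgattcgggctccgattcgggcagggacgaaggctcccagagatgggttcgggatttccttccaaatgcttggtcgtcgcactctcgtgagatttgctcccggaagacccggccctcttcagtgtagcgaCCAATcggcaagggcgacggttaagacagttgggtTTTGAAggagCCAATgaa
Mcm5, chr8:75109259-75109508 (plus strand): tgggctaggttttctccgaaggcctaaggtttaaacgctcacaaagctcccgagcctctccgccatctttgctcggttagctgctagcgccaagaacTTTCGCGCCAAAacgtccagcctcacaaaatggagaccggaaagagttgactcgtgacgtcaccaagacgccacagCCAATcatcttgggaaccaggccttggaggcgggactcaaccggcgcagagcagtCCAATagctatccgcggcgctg

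The CHR of Cdk1 nearest the start site began 15 bases before it, and that of Cdc20 18 bases before it. Top2a had CHR matches 179 and 23 bases before the start, and Ccnb2 167 bases before and, outside the printed stretch, 5 bases after it. Cdk1 also had an E2F core beginning 131 bases before the start, which the other 3 mitosis promoters lacked in these letters. In Mcm5 both E2F matches overlap in the run TTTCGCGCCAAA. The matches are descriptions of these windows and not of binding.

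Around the 36 genes, 138 other cell cycle genes were described, of which 137 were tested. Among them 45 differed between LN-LEC and D-LEC (24 higher in LN-LEC), 37 between LN-LEC and LN-BEC (15 higher in LN-LEC) and 55 between D-LEC and LN-BEC (23 higher in D-LEC). These were 32.8%, 27.0% and 40.1% of the 137, against 45.8%, 38.2% and 48.0% of all genes, and their median absolute log2 fold changes were 0.35, 0.27 and 0.37. Of 40 other replication genes, 15, 12 and 18 were called in the 3 comparisons (each a smaller share than the 45.8%, 38.2% and 48.0% of all genes), with 7, 6 and 7 of them higher in the population named first. Those with the widest differences were Pole, the catalytic subunit of DNA polymerase epsilon, and Chaf1b, a chromatin assembly factor subunit, both low in the diaphragm. Pole had 119.8, 120.2 and 81.8 normalized counts in D-LEC, 516, 505, 682 and 414 in LN-LEC and 571, 693 and 504 in LN-BEC (log2 fold change 2.33 ± 0.20, adjusted p = 5.83e-07 for LN-LEC minus D-LEC, and log2 fold change -2.47 ± 0.21, adjusted p = 3.8e-07 for D-LEC minus LN-BEC). Chaf1b averaged 30.9 ± 6.26 in D-LEC, 106 ± 19.2 in LN-LEC and 108 ± 20.8 in LN-BEC. Between the LN populations, the origin kinase gene Cdc7 was higher in LN-BEC (log2 fold change -1.01 ± 0.22, adjusted p = 0.0021) and Gins2, a subunit of the replicative helicase, higher in LN-LEC (log2 fold change 1.34 ± 0.38, adjusted p = 0.012).

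Of 55 other mitosis genes, 12, 11 and 14 were called (each a smaller share than the 45.8%, 38.2% and 48.0% of all genes), and 8, 4 and 4 of these were higher in the population named first. Spc25, a kinetochore subunit, was low in D-LEC as Pole was, with 46.7, 56.1 and 66.1 normalized counts against 281, 291, 218 and 457 in LN-LEC and 395, 359.8 and 238 in LN-BEC (log2 fold change 2.48 ± 0.28, adjusted p = 8.39e-06, and log2 fold change -2.55 ± 0.29, adjusted p = 7.9e-06). Bub1b, the checkpoint protein BUBR1, was high in LN-LEC and at 285, 315, 308 and 236 against 91.0, 102 and 111 in LN-BEC, with 135, 65.1 and 63.6 in D-LEC (log2 fold change 1.51 ± 0.25, adjusted p = 0.000226, and log2 fold change 1.74 ± 0.25, adjusted p = 6.84e-05). Sgol2, which protects sister chromatid cohesion, and the chromokinesin gene Kif4 had their highest means in LN-BEC, the population in which Cdk1 was highest. Sgol2 averaged 531 ± 75.4 in LN-BEC, 268 ± 33.4 in LN-LEC and 251 ± 35.5 in D-LEC (log2 fold change -0.97 ± 0.14, adjusted p = 9.13e-05 for LN-LEC minus LN-BEC). Kif4 averaged 84.5 ± 7.80 in LN-BEC, 43.3 ± 9.06 in LN-LEC and 28.4 ± 1.02 in D-LEC (log2 fold change -1.58 ± 0.28, adjusted p = 0.000385 for D-LEC minus LN-BEC).

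The E2F and pocket protein list had 8, 8 and 12 of 18 genes called (44.4%, 44.4% and 66.7%, against 45.8%, 38.2% and 48.0% of all genes). Rbl1, which encodes the pocket protein p107, had 1773, 1662, 1789 and 1716 normalized counts in LN-LEC and 1968, 1888 and 1627 in LN-BEC, with 450.3, 585 and 607 in D-LEC, the lowest of the 3 populations (log2 fold change 1.68 ± 0.12, adjusted p = 4.57e-08 for LN-LEC minus D-LEC, and log2 fold change -1.74 ± 0.12, adjusted p = 4.02e-08 for D-LEC minus LN-BEC). The repressor genes E2f7 and E2f8 ran in opposite directions between the LN populations: E2f8 had 163, 203, 190.0 and 229 normalized counts in LN-LEC and 19.3, 38.1 and 39.9 in LN-BEC (log2 fold change 2.62 ± 0.28, adjusted p = 4.65e-06), and E2f7 165, 143, 150.4 and 172 and 409.7, 519 and 457 (log2 fold change -1.53 ± 0.14, adjusted p = 1.3e-06). Mycn, a MYC family activator, was highest in LN-BEC at 4987, 5447 and 3269, with 1775, 1970.2, 2138 and 1636 in LN-LEC and 626, 646 and 654 in D-LEC (log2 fold change -2.84 ± 0.17, adjusted p = 2.91e-08 for D-LEC minus LN-BEC). None of the 7 genes of MuvB and its partners was called by edgeR in any comparison, with 1, 1 and 0 of them at an unadjusted p under 0.05.

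Of 17 tested inhibitors and antiproliferative genes, 10, 6 and 11 were called (58.8%, 35.3% and 64.7%, against 45.8%, 38.2% and 48.0% of all genes), 4, 1 and 6 of them higher in the population named first. Cdkn2b, which encodes the INK4 inhibitor p15 and lies next to Cdkn2a, was high in lymphatic endothelium, with 143, 169, 148 and 91.8 normalized counts in LN-LEC and 194, 209 and 174 in D-LEC against 25.4, 13.8 and 17.9 in LN-BEC (log2 fold change 2.86 ± 0.28, adjusted p = 2.03e-06, and log2 fold change 3.32 ± 0.29, adjusted p = 4.72e-07). The population means of Cdk6, a kinase that p15 binds, stood in the same order. Btg2, an antiproliferative p53 target that is also an immediate early gene, had 11641, 12578 and 15230.5 in D-LEC, 4571, 4551 and 7877 in LN-BEC and 1202, 993, 1204 and 2301 in LN-LEC (log2 fold change -3.18 ± 0.33, adjusted p = 6.03e-05; log2 fold change -1.97 ± 0.32, adjusted p = 0.00115; log2 fold change 1.21 ± 0.34, adjusted p = 0.0185), with no overlap between populations. Gadd45g, a stress-induced growth arrest gene, was lower in LN-LEC than D-LEC (log2 fold change -1.76 ± 0.23, adjusted p = 7.32e-05). It averaged 253 ± 79.2 in LN-LEC and 878 ± 133 in D-LEC, with 886 ± 182 in LN-BEC. The dissociation response genes ran in the same order of populations as Btg2, with LN-LEC replicate 4 and LN-BEC replicate 3 highest in their populations for both, and their part in these differences was not tested.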

How the data were processed

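The authors sequenced bulk RNA of 10 libraries in paired reads, trimmed the reads, aligned them with STAR to mm9 and counted fragments on exons by gene name with featureCounts 1.4.4, per the file headers and the study's methods, without using strand and without fragments that matched more than 1 gene. The deposited values are raw counts per gene and library. Libraries were grouped by population as labelled. The labels name no batch or day, and nothing says that libraries came from separate cohorts, so p-values measure the spread between these pools only. Rows of 3830 predicted or unnamed transcripts (3.05 to 3.37% of fragments) were left out of the tests.

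Named genes entered the test where their normalized count averaged 1 or more in at least 1 population (15321 genes). They were tested with edgeR 4.0.16 (R 4.3.3; quasi-likelihood F test, TMM, all 10 libraries in 1 fit), with Benjamini-Hochberg adjustment over all of them. The SE is the absolute fold change (log2) over the root of the F statistic. Normalized counts used DESeq2 1.42.0 size factors. FPKM used TMM-scaled totals and the deposited exon lengths. The depth allowed counts of 3 or more per gene to be told from 0. The SD and SE given cover the spread between libraries as well as counting error. In simulated counts, 2-fold changes of 200 genes with means of at least 10 were recovered for 72.5% (LN-LEC against D-LEC), 69.0% (LN-LEC against LN-BEC) and 71.0% (D-LEC against LN-BEC) of genes, and 8-fold changes for 96.5%, 96.5% and 94.5%. False calls made up 3.33%, 8% and 5.96% of the calls at 2-fold, and 3.98%, 5.39% and 4.06% at 8-fold. Far fewer genes were changed in the simulation than were called in the data, so these shares need not hold there.

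The 36 genes, the other cell cycle lists and the marker lists were chosen with earlier results of these data known. All 36 genes are named. Of the other lists, the 2 genes per list and comparison with the largest absolute fold change are named, among those called with libraries that did not overlap. The alternatives were DESeq2 in place of edgeR, RLE scaling, library totals, other filters, unnamed transcripts kept, 2 populations per fit, each library left out in turn and, chosen after seeing the data, LN-BEC replicate 3 and LN-LEC replicate 4 left out together. Every pair of libraries of a population differed by more than counting noise (chi-square per degree of freedom of 11.2 or more). This cannot show that they came from separate pools, since libraries prepared apart from 1 pool could also differ so. Each library was counted as 1 replicate, as in the study.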

Additional observations from a re-analysis of the deposited data

Results flagged for a closer look

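In 4 of the 36 genes, 1 LN-LEC library lay apart from the other 3 by Dixon's gap test, which chance gives in about 5% of genes. Pcna had 1576 normalized counts in LN-LEC replicate 4 against 1351 to 1366 in the other LN-LEC libraries, and Bub1 had 68.5 in the same library against 57.1 to 58.8. Ccne1 had 21.5 in LN-LEC replicate 3 against 14.3 to 15.2, a difference of a few fragments. Ccne2 had 80.4 in LN-LEC replicate 1 against 97.4 to 99.5. LN-LEC replicate 4 was the most deeply sequenced library, with 48906070 counted fragments, and it also held the highest LN-LEC values of 8 of the 13 S phase genes. Populations of 3 libraries were not examined in this way.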

How the results depend on the processing

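No paired analysis was possible because the labels give no replicate numbers that link libraries of different populations. Of 38 calls of a gene in a comparison, 21 stood in all 18 alternative settings and 17 were lost in at least 1 of them, while 17 other gene comparisons passed in at least 1 setting. Besides Cdkn2a and those named above, differences that passed with 1 library left out were those of Birc5 between LN-LEC and D-LEC (LN-LEC replicate 1), Bub1 between D-LEC and LN-BEC (LN-BEC replicate 3 or D-LEC replicate 2), and, between LN-LEC and LN-BEC, Ccnd3 (LN-LEC replicate 3), Cdkn2c (LN-LEC replicate 2) and Top2a (D-LEC replicate 2 or 3). Library totals alone added Ccnd1, Cdkn2c, Mcm4 and Top2a between LN-LEC and LN-BEC, and Cdk2, Mcm2 and Mcm7 between D-LEC and LN-BEC. With no library left out, Bub1 between D-LEC and LN-BEC also passed with DESeq2 and with 1 of the other filters (filterByExpr). Top2a between LN-LEC and LN-BEC also passed with 2 populations per fit. The number of genes called among the 36 stayed within 1.5 times the value given above in each setting. With 1 library left out at a time it ran from 11 to 15 for LN-LEC against D-LEC, from 8 to 12 for LN-LEC against LN-BEC and from 9 to 15 for D-LEC against LN-BEC. The least stable calls were those of Ccnb2 between LN-LEC and LN-BEC (lost in 11 settings), Top2a (8) and Cdk6 (7) between LN-LEC and D-LEC, and Bub1 between LN-LEC and D-LEC and Mcm5 between D-LEC and LN-BEC (6 each). Calls of Ccnd1, Ccnd2, Cdk1, Cdkn1b and Cdkn2c stood in every setting, as did those of Cdk6 against LN-BEC. The uncalled difference of Mcm4 between LN-LEC and LN-BEC changed sign without LN-LEC replicate 4 (from -0.00525 to 0.25 over the libraries left out in turn) and without that library and LN-BEC replicate 3 (-0.021). Removing TMM factors turned more members higher in the LEC populations than in LN-BEC, by construction with the shift of the median of all genes. Depth limits Cdkn2a, which could not be compared, and Ccne1.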
